A study of Mus musculus with 48 samples.

Results

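The acute phase proteins are secreted proteins whose concentration in blood changes with inflammation, infection or injury. The genes described are Saa1, Saa2, Saa3, Orm1, Orm2, Hp, Hpx, Apcs, Crp and Lcn2. Every probe set with 1 of these symbols as its only gene symbol in the platform annotation was taken, which gave 11 probe sets for 10 of 12393 genes, among 20380 probe sets with 1 gene symbol and 22626 without the controls. Saa1 had 2 probe sets and each of the other genes 1. All 10 genes were found, and the rule uses no measured value.

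RNA from mice was hybridised to 48 Affymetrix arrays, in 8 groups: liver, kidney and hypothalamus of males and of females, testis, and ovary. A group is 3 RNA samples, numbered 1 to 3 in the titles, each on 2 arrays whose values were averaged, so n = 3 per group. Per the labels the RNA was bought, each RNA sample came from a pool of 10 animals, and the tissues were healthy. The sources used here give no strain or age. A pool hides the spread between animals, and whether samples 1 to 3 stand for different pools is not stated, so the spread behind each p-value could be a technical one. The labels describe the RNA of hypothalamus as total and that of the other tissues as selected for polyA, while another field gives total RNA for all, so any contrast with hypothalamus cannot be told apart from that difference in RNA.

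Hepatocytes make most acute phase proteins. Interleukin-6, acting through the receptor chains Il6ra and Il6st and the transcription factor Stat3, and interleukin-1 and tumour necrosis factor, acting through NF-kB, raise their transcription, and C/EBP factors bind near many of the genes. The serum amyloid A proteins (Saa1, Saa2, Saa3) associate with high density lipoprotein, the orosomucoids (Orm1, Orm2) bind drugs and other small molecules, haptoglobin (Hp) binds free haemoglobin and hemopexin (Hpx) binds haem. The pentraxins are serum amyloid P (Apcs), a main acute phase reactant of the mouse, and C-reactive protein (Crp), which responds weakly in the mouse, while lipocalin 2 (Lcn2) binds the siderophores by which bacteria take up iron and is also made by neutrophils and epithelial cells.

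Values are intensities on the authors' linear scale, on which every array had a trimmed mean between 500.115 and 500.228. The 40th percentile, above which a probe set had to lie in 3 RNA samples to be tested, was between 109 and 182.5 in the 24 samples, and the highest intensity of a sample between 14193.9 and 28844.3. The 2 arrays of a sample correlated at 0.9656 to 0.9899 over all probe sets. The precision of the tests is limited by the 3 RNA samples of a group, not by the repeat arrays. The labelled tissues carried their markers: all 10 hepatocyte genes were above the 40th percentile in every liver sample, all 8 proximal tubule genes in every kidney sample, all 7 neuron and hypothalamus genes in every hypothalamus sample, all 6 male germ cell genes in every testis sample and all 7 oocyte and granulosa genes in every ovary sample. In liver, exocrine pancreas markers summed to between 10308 and 50665 over 10 genes, against at most 5268.1 in any other tissue, so the liver RNA also held pancreatic transcripts. Samples of the same number deviated together between the sexes in liver, kidney and hypothalamus, and fewer cells of a type and less RNA per cell cannot be told apart in these bulk samples.

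The Saa genes neighbour each other on chromosome 7, Orm1 and Orm2 on chromosome 4, and Apcs and Crp lie on chromosome 1, per the RefSeq gene table of assembly GRCm38.p6. The probe sets of the Saa family are not independent. The Saa1 probe set 1419075_s_at was designed on a transcript that this table assigns to Saa2, the same transcript as the Saa2 probe set 1449326_x_at, while the Saa1 probe set 1450788_at was designed on a transcript of Saa1 itself. The suffixes _s_at, _x_at and _a_at mark designs that can read more than 1 transcript, so the Saa1 and Saa2 readings are uncertain as to which of these near-identical genes they measure.

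The RefSeq promoter table of GRCm38.p6 held 8 of the 10 genes. Of the 250 bases before each start it gives, those of the genes with the widest spread between liver samples are shown, a choice made after the values were seen. Capitals mark matches to the C/EBP motif TTGCNNAA on either strand.
Saa1, chr7:46742981-46743230, minus strand: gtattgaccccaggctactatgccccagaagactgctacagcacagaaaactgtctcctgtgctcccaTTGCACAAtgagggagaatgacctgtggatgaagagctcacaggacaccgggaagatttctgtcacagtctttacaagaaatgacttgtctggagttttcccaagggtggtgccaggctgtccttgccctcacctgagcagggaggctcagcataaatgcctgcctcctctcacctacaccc
Saa2, chr7:46751583-46751832, plus strand: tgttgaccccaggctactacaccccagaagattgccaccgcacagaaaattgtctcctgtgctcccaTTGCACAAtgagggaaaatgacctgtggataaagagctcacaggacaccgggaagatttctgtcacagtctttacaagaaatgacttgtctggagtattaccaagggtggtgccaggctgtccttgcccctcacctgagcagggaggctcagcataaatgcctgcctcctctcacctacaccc
Saa3, chr7:46715677-46715926, minus strand: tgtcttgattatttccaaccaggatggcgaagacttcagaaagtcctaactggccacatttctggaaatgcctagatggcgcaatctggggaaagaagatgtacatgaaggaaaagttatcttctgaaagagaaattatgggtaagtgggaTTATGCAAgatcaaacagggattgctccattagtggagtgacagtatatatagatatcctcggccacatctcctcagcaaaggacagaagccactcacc
Orm2, chr4:63362199-63362448, plus strand: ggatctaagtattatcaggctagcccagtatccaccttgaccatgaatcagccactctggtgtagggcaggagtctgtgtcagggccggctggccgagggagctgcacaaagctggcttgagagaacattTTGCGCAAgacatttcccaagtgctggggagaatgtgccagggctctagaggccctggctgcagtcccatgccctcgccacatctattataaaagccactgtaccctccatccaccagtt
Lcn2, chr2:32387740-32387989, minus strand: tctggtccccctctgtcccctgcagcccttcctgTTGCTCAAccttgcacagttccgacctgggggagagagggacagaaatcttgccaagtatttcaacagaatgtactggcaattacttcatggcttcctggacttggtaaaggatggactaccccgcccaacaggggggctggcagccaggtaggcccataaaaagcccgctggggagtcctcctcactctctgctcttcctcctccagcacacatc

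The Saa1 and Saa2 sequences had 238 identical bases in 251 aligned columns, which is 94.8%, and carried the same 8 letters, TTGCACAA, at 182 to 175 and 183 to 176 bases before the start. In Saa3 the match (TTATGCAA, on the opposite strand) lay at 99 to 92 bases, in Orm2 (TTGCGCAA, a match on both strands) at 120 to 113 bases, and in Lcn2 (TTGCTCAA) at 216 to 209 bases. Hpx also held a match, TTGCTGAA, while Apcs and Crp held none. So 6 of the 8 genes held the motif, against 9.56% of 32851 windows of the same length. The matches of Saa1 and Saa2 lie in near-identical sequence and are not independent in this count. The STAT motif TTCNNNGAA was found in 1 of the 8 (Apcs), against 7.02% of windows, and the NF-kB motif, GGG and TTCC with any 3 bases between them, in 0, against 4.65%. Both strands were searched, no match overlapped one of another motif, and a match describes letters only. The starts are those of the table, and the windows of Saa1 and Saa3 lie in part or wholly inside the range RefSeq gives the gene, which has further starts.

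All 11 probe sets were bright in all 6 liver samples. The haem and haemoglobin scavengers were at the top of the scale. Hp had 18260, 22720 and 23500 in male liver samples 1 to 3 and 19500, 21040 and 19850 in the female ones, and ranked between 10 and 20 among the 22626 probe sets of a liver sample. Hpx had 17580, 20070 and 21610 in male and 17850, 19660 and 18520 in female liver, at ranks 16 to 29. The sexes overlapped for both genes, and with values this near the highest of a sample a compressed range cannot be told apart from a steady level.

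The pentraxins were nearly as even. Apcs had 11260, 15880 and 12740 in male and 15500, 11760 and 13380 in female liver. Crp had 7793, 6702 and 8287 in male and 9155, 7313 and 6742 in female liver. For both genes the sexes overlapped and the highest liver sample was at most 1.41 times the lowest.

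The serum amyloid A genes differed far more from sample to sample. Saa1 on 1450788_at had 5093, 14260 and 13370 in male and 14150, 8405 and 12750 in female liver. On 1419075_s_at it had 2577, 16280 and 16890 in male and 19810, 5905 and 13800 in female liver, and Saa2 had 1445, 10450 and 11030 in male and 12190, 4758 and 9185 in female liver. Male sample 1 was the lowest and female sample 2 the next on all 3 probe sets. Saa3, the family member that macrophages and adipocytes also make, had 658.2, 4282 and 4030 in male and 1372, 1472 and 2926 in female liver. Here male sample 1 was again the lowest, but female samples 1 and 2 were both low.

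The orosomucoids and Lcn2 were low in the same samples as Saa1. Orm1 had 5985, 9674 and 9452 in male and 11360, 7655 and 8698 in female liver. Orm2, the neighbouring gene, had 584.4, 3732 and 2616 in male and 6986, 2268 and 3568 in female liver. Lcn2 had 1934, 13660 and 9152 in male and 14840, 6335 and 12950 in female liver. For these 3 genes male sample 1 was the lowest, female sample 2 the next and female sample 1 the highest.

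**Figure D1:**
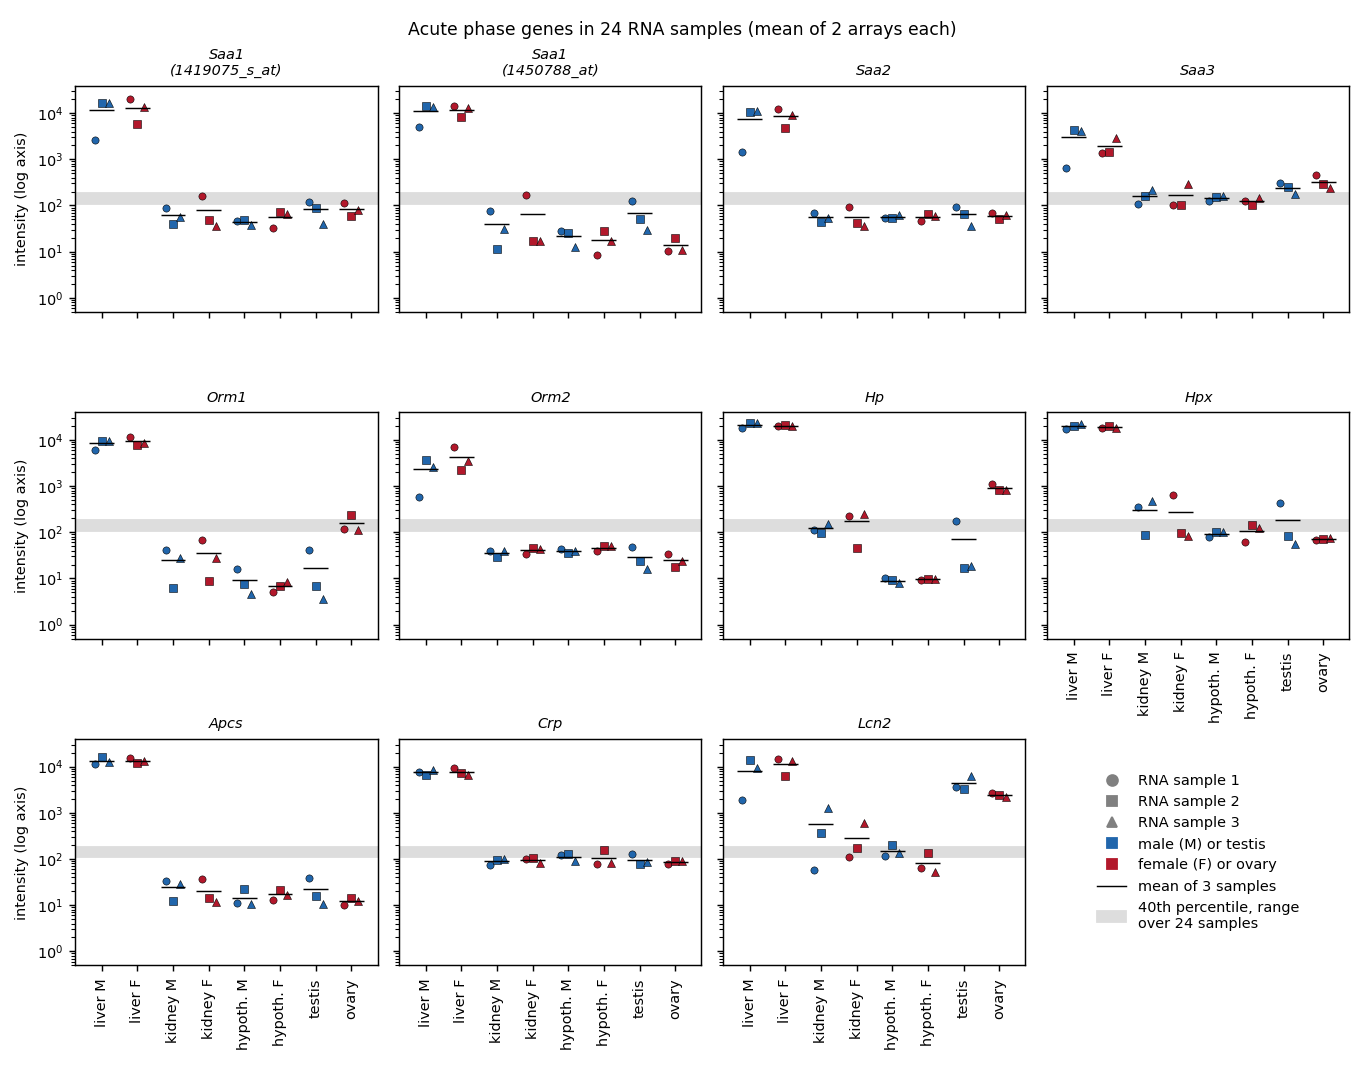
Intensity (log axis) of the 11 probe sets in the 24 RNA samples, by group, with symbols for RNA samples 1 to 3, a line at each group mean and a grey band from 109 to 182.5 for the 40th percentile of the samples. All probe sets lie high in liver, and outside it all samples lie above the band for Lcn2 in testis and ovary and for Hp and Saa3 in ovary.

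The spread within a sex, pooled over both sexes on the log2 scale, set the genes apart. It was 1.27 for Saa2, 1.26 and 0.65 for the probe sets of Saa1, 1.14 for Saa3, 1.14 for Lcn2, 1.11 for Orm2 and 0.34 for Orm1, against a median of 0.20 over the 13847 probe sets tested in liver. For Saa2 and for Saa1 on 1419075_s_at, 99.8% of those probe sets had a smaller spread, and for Saa3, Lcn2 and Orm2 99.6%. Among the 1385 brightest of them, between 98.9% and 99.4% had a smaller spread than these 5 probe sets. The spread was 0.23 for Apcs, 0.20 for Crp, 0.15 for Hp and 0.12 for Hpx, and 28.5% of the tested probe sets had a smaller one than Hp and 17.8% than Hpx. These are descriptions, with no test.

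Male liver sample 1 carried much of the range. From the lowest to the highest liver sample, Orm2 differed 12-fold, Saa2 8.44-fold, Saa1 7.69-fold on 1419075_s_at and 2.80-fold on 1450788_at, Lcn2 7.68-fold and Saa3 6.50-fold. Over the other 5 samples the ranges were 3.08-fold for Orm2, 2.56-fold for Saa2, 3.35-fold and 1.70-fold for Saa1, 2.34-fold for Lcn2 and 3.12-fold for Saa3. The lowest of those 5 samples was 3.88 times male sample 1 for Orm2, 3.29 times for Saa2, 3.28 times for Lcn2 and 2.29 times for Saa1 on 1419075_s_at, but 1.07 times for Hp and 1.02 times for Hpx. Crp was the only member not lowest in that sample. The 2 arrays of a liver sample differed at most 1.25-fold for Saa1, 1.52-fold for Saa2, 1.37-fold for Saa3, 1.46-fold for Orm2 and 1.19-fold for Lcn2, so repeat arrays lay far closer together than the samples.

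**Figure D2:**
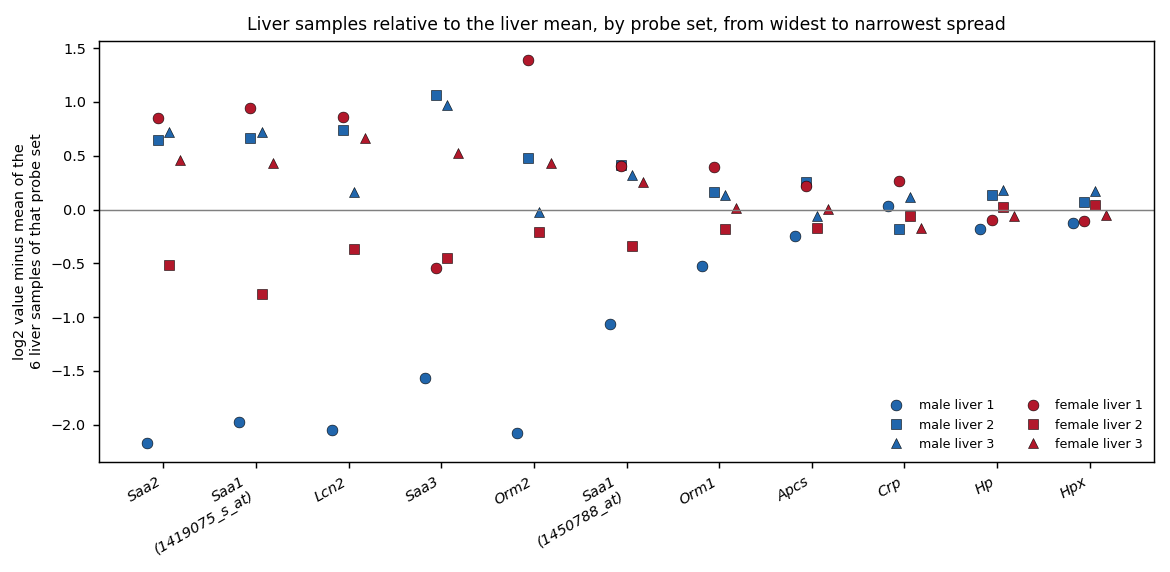
Difference (log2) of each liver sample from the mean of the 6 liver samples of the same probe set, for the 11 probe sets from the widest to the narrowest spread, male samples in blue and female in red. Male sample 1 lies lowest for every gene but Crp, and the points close up toward Hp and Hpx.

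Over the 6 liver samples, log2 values of Saa1 on 1450788_at had a Pearson correlation of 0.97 with Lcn2, 0.95 with Orm1, 0.92 with Orm2, 0.83 with Apcs and 0.82 with Saa3. The correlation was 0.61 with Hp, 0.45 with Hpx and 0.02 with Crp. Hp and Hpx correlated with each other at 0.97, over their narrow range. Between Saa1 and Saa2 it was 0.99, which probes that read both genes could also give, though probe sequences were not compared. The points share the pairing of sample numbers and rest in part on male sample 1.

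The title of the series names the comparison of the sexes. In liver 0 of the 11 probe sets passed between male and female (limma, Benjamini-Hochberg adjusted p under 0.05), where 0.0506% of the 13847 tested probe sets did. At an unadjusted p under 0.05 the count was also 0, against 1.95% of all tested, with the sample numbers as a block it was 0 while the calls over all probe sets went from 7 to 11, and for 0 of 11 did the 3 values of 1 sex lie all above those of the other, against 6.07%. The difference, male minus female on the log2 scale, was -1.08 ± 0.66 (SE of the fit) for Orm2, -0.77 ± 0.67 for Lcn2, -0.53 ± 0.74 for Saa2, -0.39 ± 0.74 and -0.21 ± 0.39 for Saa1 and 0.31 ± 0.67 for Saa3. For Saa1, Saa2 and Saa3 the SE was larger than the difference. The steadier genes had smaller errors, with 0.09 ± 0.14 for Hp, 0.08 ± 0.13 for Hpx, -0.03 ± 0.17 for Apcs, -0.02 ± 0.16 for Crp and -0.15 ± 0.23 for Orm1. Without male sample 1 the uncalled difference was -0.31 for Orm2, 0.07 for Lcn2, 0.42 for Saa2, 0.50 and 0.26 for Saa1 and 1.18 for Saa3, so its sign turned for Lcn2, Saa2 and Saa1.

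**Figure D3:**
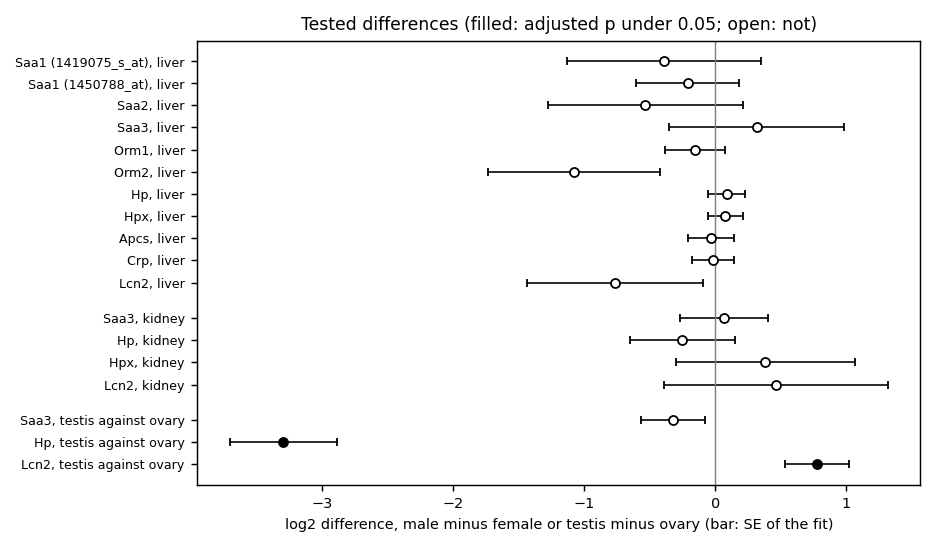
Difference on the log2 scale (male minus female, or testis minus ovary) with the SE of the fit, for each probe set tested in liver, kidney and the gonads, filled where the adjusted p was under 0.05. Only Hp and Lcn2 in testis against ovary are filled, and the bars are short in liver for Hp, Hpx, Apcs and Crp.

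Further lists of the pathway were read beside the members in liver. Of 24 other positive acute phase genes tested, 0 passed between the sexes, with a median difference of -0.12 against -0.01 over all tested probe sets. Those with the lowest p were Mt1 (-0.42), a metallothionein, Agt (-0.24), the precursor of angiotensin, Serpina3n (-0.31), a protease inhibitor, and Lbp (-0.27), which binds lipopolysaccharide. Of 11 negative acute phase genes 0 passed, with a median of 0.07, and of 17 signalling and transcription factors 0, with a median of -0.11. Of 12 cytokines and receptors 0 passed, and the lowest unadjusted p was 0.045 for Osmr, the oncostatin M receptor, at 141.2 in male and 219.9 in female liver.

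Male liver sample 1 was also low for part of these lists. It was the lowest liver sample for 14 of 24 other positive acute phase genes and for 0 of 11 negative ones, where 17.7% of all 13847 tested probe sets had their lowest value in it. A larger share, 26.7%, had their highest value in it, more than in any other liver sample. The following genes were chosen after their values were seen. Steap4, a metalloreductase, was at 1929 there and between 4076 and 5794 in the other 5 liver samples, and Mt2, a metallothionein, at 3408 against 6506 to 10460. Cd14, the coreceptor for lipopolysaccharide, was at 710.9 against 1115 to 2830, and Lrg1, a secreted glycoprotein, at 7138 against 8910 to 13880. Among the transcription factors Cebpd was at 180.9 against 314.4 to 660.9 and Nfkb2 at 48.5 against 153.8 to 201.1, while Cebpb (1846 against 1494 to 2243) and Stat3 (1950 against 1640 to 2710) lay within the range of the others. Serpina3n, at 6168 against 5293 to 10260, also lay within it, as did Saa4, the Saa gene that is made constantly, at 3696 against 3005 to 5453.

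The summed markers of neutrophils and of macrophages and Kupffer cells were, like Saa1, Orm2 and Lcn2, lowest in male liver sample 1. The 11 neutrophil markers summed to 3574.2, 13509 and 8942 in male liver samples 1 to 3 and to 17701, 9552.8 and 13350 in the female ones. Male sample 1 was the lowest for 8 of 10 tested, such as S100a8 at 821.4 against 2927 to 6299, and their median correlation with Saa1 was 0.88 over the 6 samples, against -0.14 over all tested probe sets. The 13 macrophage and Kupffer cell markers summed to 26224 in male sample 1 and to between 37441 and 69941 in the other 5, and all 13 were lowest in male sample 1, with a median correlation of 0.65. The 6 MHC class II genes summed to 7875.7 in male sample 1 and 8558.7 in female sample 1, against 35961 to 52192 in the other 4, so they were low in female sample 1, where Saa1, Orm2 and Lcn2 were high. Of 7 lymphocyte markers tested, 4 were lowest in male sample 1. The 1 erythroid marker tested, Alas2, was not, at 998 there against 371.8 to 1145 in the other 5. Hepatocyte markers summed to between 131920 and 143250 in all 6 livers, but single ones did differ. Male sample 1 was the lowest for 1 of the 10, Arg1, and their median correlation with Saa1 was -0.3. It was the highest for Cps1, Uox, Otc (7570 against 6029 to 7170) and Tdo2 (4060 against 2618 to 2922). The part of these cells in the spread of the members was not tested.

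**Figure D4:**
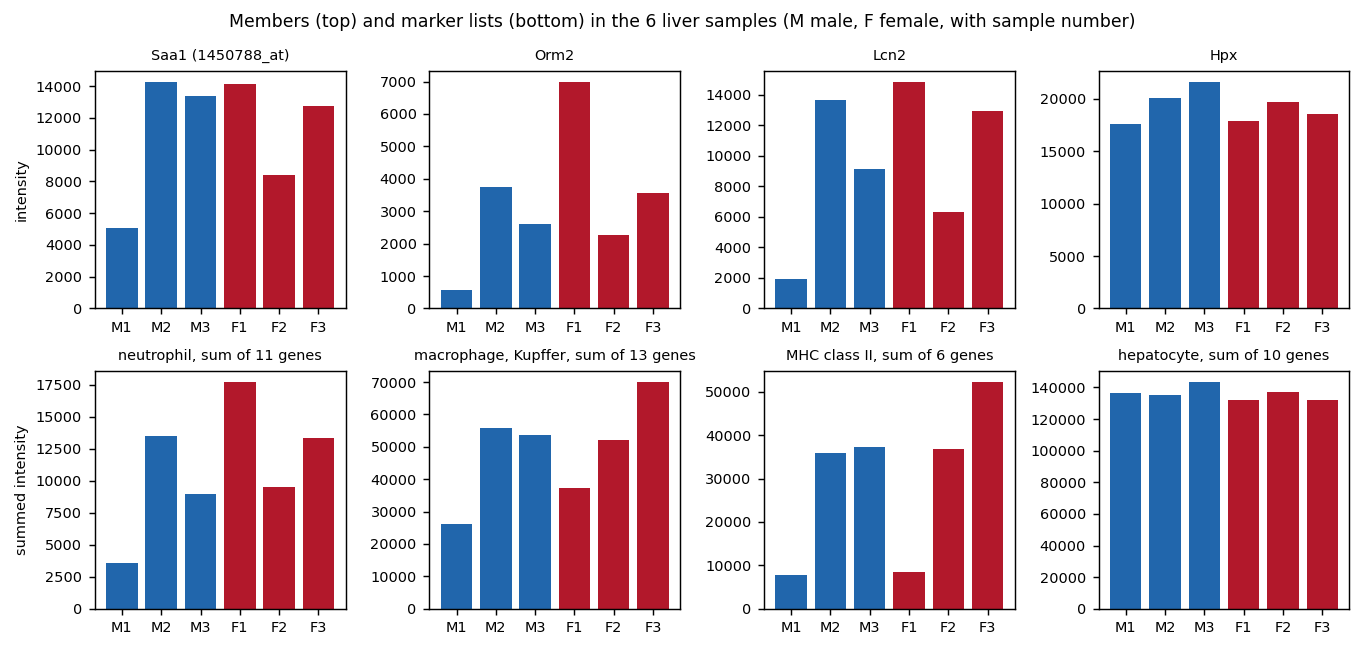
Intensity of 4 members (top) and summed intensity of 4 marker lists (bottom) in the 6 liver samples, male in blue and female in red, each axis starting at 0. Saa1, Orm2, Lcn2 and the neutrophil sum are lowest in male sample 1, the MHC class II sum is low in sample 1 of both sexes, and Hpx and the hepatocyte sum are nearly level.

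Whether samples of 1 number share a level was asked with the number as a term beside sex. In liver 0 of the 11 probe sets passed, where 0.831% of all tested did. The lowest p was that of Saa3 (limma F = 6.91, unadjusted p = 0.0229, adjusted p = 0.226). Male and female sample 1 lay at opposite ends for Saa1 on 1419075_s_at, Saa2, Orm1, Orm2 and Lcn2. Saa3 passed without male sample 2 (adjusted p = 0.0479), female sample 1 (0.0397) or female sample 2 (0.0222), and without female sample 1 so did Saa2 (0.0261) and Saa1 on 1419075_s_at (0.0407).

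Outside the liver most members were dim. Of the 11 probe sets, 7 (both of Saa1, and those of Saa2, Orm1, Orm2, Apcs and Crp) reached the 40th percentile in fewer than 3 of the 18 other samples and entered the test between tissues only through liver, so that they differ there follows from the filter and is given as levels. Apcs lay between 10.3 and 39.4 in all 18 samples and Orm2 between 15.8 and 50.5, with no tissue standing apart for Apcs and the 3 ovary samples below the 6 hypothalamus samples for Orm2. Crp lay between 73.6 and 153.7 in them, Saa2 between 35.5 and 92.3, Saa1 between 8.3 and 165.4 on 1450788_at, and Orm1 between 3.65 and 238.2. The probe sets that also passed outside liver were those of Saa3, Hp, Hpx and Lcn2.

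For these 4 genes liver was set against each tissue, in a fit of all 24 samples. Hp was 141 times as bright in liver as in kidney (log2 difference 6.85 ± 0.25, adjusted p = 1.32e-16) and 22.7 times as bright as in ovary (4.45 ± 0.31, 2.17e-11). Hpx was 67.1 times as bright in liver as in kidney (6.17 ± 0.37, 1.41e-12). Saa3 was 15.0 times as bright as in kidney, 10.1 times as in testis and 7.47 times as in ovary (lowest difference 2.53 ± 0.41, 1.17e-05). In kidney 3 of 6 samples were above the 40th percentile for each of Hp, Hpx and Saa3, and no fold is given for Hpx in testis, where 1 of 3 samples was, or for Saa3, Hp and Hpx in hypothalamus, where 0 of 6 were. Lcn2 was 22.8 times as bright as in kidney (4.64 ± 0.49, 2.66e-08), but only 4 times as in ovary (1.72 ± 0.60, 0.0153) and 2.22 times as in testis (0.94 ± 0.60, 0.163), which did not pass. Male liver sample 1, at 1934, lay below all 6 gonad samples for Lcn2, and without it the liver and testis difference was 1.36 with an adjusted p of 0.0297. The call against ovary was lost without ovary sample 3 (0.0502) and with quantile normalization (0.0573). Of all 18092 probe sets tested, 22.1% were higher in liver than kidney, 28.3% than hypothalamus, 37.5% than testis and 19.1% than ovary. The share of the calls that were higher in liver moved with quantile normalization from 37.2% to 49.9% against hypothalamus and from 29.8% to 43.8% against ovary.

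Lcn2 was bright in both gonads. It had 3689, 3223 and 6372 in testis samples 1 to 3 and 2667, 2475 and 2220 in ovary. All 3 testis samples lay above all 3 ovary samples, and the log2 difference was 0.78 ± 0.24 (limma adjusted p = 0.0167). Of the 3 members tested, 2 passed, against 70.5% of 14957 probe sets, and 74.6% of all tested did not overlap, so neither count sets the members apart. The median difference of all tested probe sets was -0.35, and -0.12 with quantile normalization, under which that of Lcn2 was 0.50 (adjusted p = 0.145). It also did not pass without ovary sample 3 (0.0653) or with all 8 groups in 1 fit (0.332), and without testis sample 3 the difference was 0.49 (0.0133).

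Hp went the other way. It had 1126, 806.9 and 817.5 in ovary and 174.5, 16.9 and 18.6 in testis, with no overlap, and the log2 difference, testis minus ovary, was -3.29 ± 0.41 (adjusted p = 6.3e-05). Hp was above the 40th percentile in 3 ovary samples but only 1 testis sample, so it entered this test through ovary, where it is high. The call held in every alternative run, also without a filter, with differences from -4.11 to -2.13. Orm1 had 119.2, 238.2 and 110.3 in ovary and 40.7, 6.75 and 3.65 in testis, also without overlap, but was too dim to be tested there. Saa3 had 456.1, 285.8 and 244.1 in ovary and 303.5, 246.4 and 181.4 in testis, which overlapped (-0.33 ± 0.24, adjusted p = 0.255), though on the technical replicate arrays alone it passed (-0.59, 0.0475). Testis sample 1 was the highest of the 3 for Hp and Orm1, and also for Hpx (427.2 against 81.5 and 54.9), for Saa1 on 1450788_at (124.3 against 50.8 and 30.2) and for Alb, albumin, a hepatocyte product (579.7 against 295.3 and 135.2). Alb is 1 of the 10 hepatocyte markers, and the others are not given here by sample.

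Other cell types differed between the gonads as well. The 7 adipocyte markers summed to between 17102 and 25859 in ovary and between 1416.2 and 3515.7 in testis. Adipoq, the adipocyte hormone adiponectin, lay at 4822 to 6512 in ovary, against a mean of 770 in testis. Adig, another of the 7, went the other way, with a mean of 661.2 in testis and 235.5 in ovary, and Lep overlapped and was too dim to be tested. The 13 macrophage markers summed to between 9042 and 9981.9 in ovary and between 6269 and 7386.5 in testis. The 11 neutrophil markers summed to between 5382.9 and 6961.4 in ovary and between 1195.5 and 1666.2 in testis, and of the ovary sum Ltf, lactotransferrin, which secretory epithelia also make, gave 4103 to 5659. The part of these cells in the levels of Hp, Orm1, Saa3 and Lcn2 was not tested.

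Of the 14 other positive acute phase genes tested in the gonads, 8 were lower in testis and 3 higher, where 45.6% of all tested probe sets were lower and 24.9% higher. Lower in testis were Steap4 (99.4 in testis against 691.2 in ovary), Pglyrp1, a bactericidal peptidoglycan receptor (9.40 against 238), Lbp (579.9 against 2239), Cd14, Cfb and Mbl2 of the complement system, Serping1 and Cp. Higher were Serpina3n, Mt1 and Mt2. Their median difference was -0.71, against -0.35 over all tested. Of 14 signalling and transcription factors tested, 11 were lower in testis, such as Cebpb (148.3 against 1740), Cebpa (246.3 against 2257) and Jak1 (395.2 against 2736), and 0 were higher, against the same 45.6% and 24.9%.

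**Figure D5:**
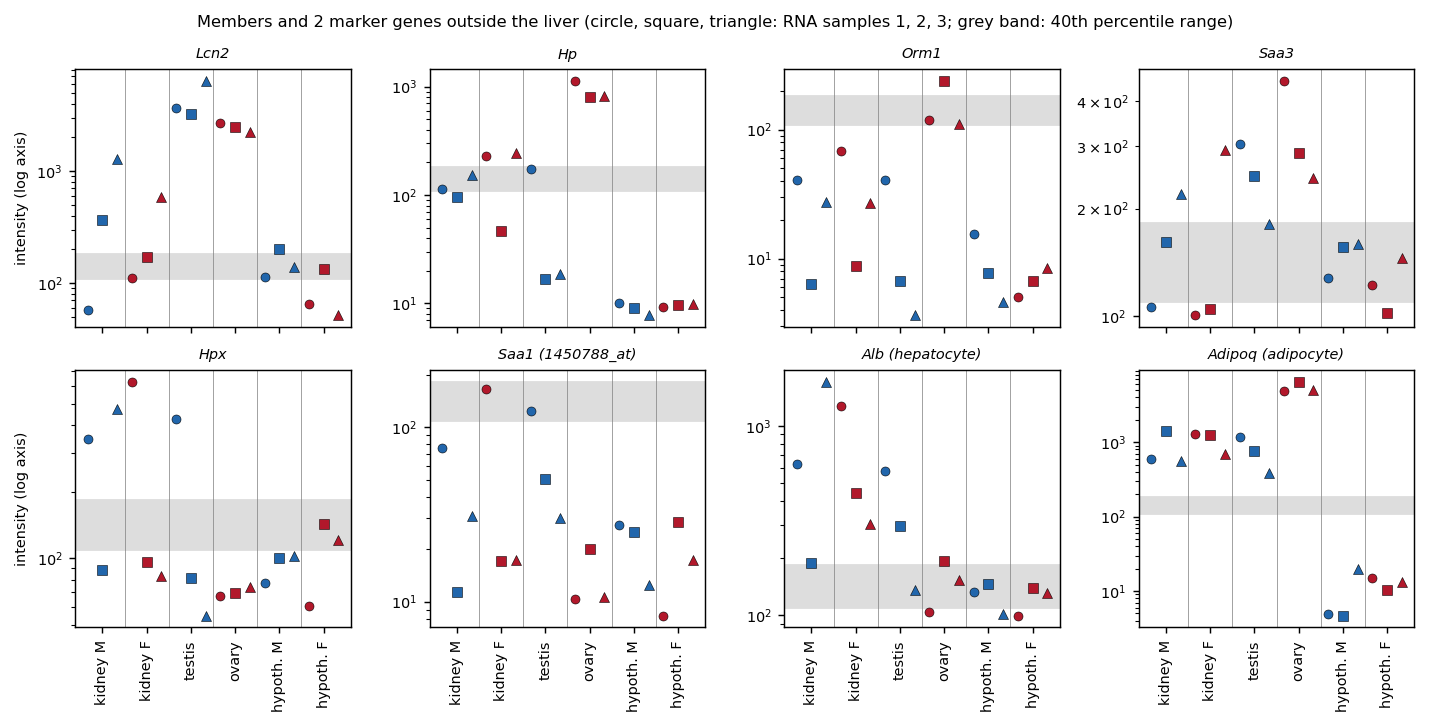
Intensity (log axis) of 6 members and of the marker genes Alb and Adipoq in kidney, testis, ovary and hypothalamus, blue for male tissue and red for female, with circle, square and triangle for RNA samples 1, 2 and 3 and a grey band for the 40th percentile. Lcn2 is high in both gonads and spreads from 57.2 to 1284 in kidney, Hp is high in ovary, and Hpx is high in the samples where Alb is high.

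In kidney Lcn2 had the widest range. It had 57.2, 366.5 and 1284 in male kidney samples 1 to 3 and 110.7, 172.1 and 591.2 in the female ones. In both sexes sample 1 was the lowest and sample 3 the highest, and the sexes overlapped. Saa3 had 105.7, 160.8 and 220.4 in male and 100.4, 104.4 and 292.7 in female kidney, in the same order. With the number as a term, Lcn2 (F = 31.5, adjusted p = 0.0186) and Saa3 (F = 14.3, 0.0419) passed among the 4 members tested, where 8.17% of all 13865 probe sets did. Neither passed on the first arrays alone (0.0899 and 0.134) or without a filter on dim probe sets (0.0729 and 0.103). The call of Saa3 was lost without male sample 1 (0.0643) or female sample 1 (0.0686), and without male sample 2, male sample 3 or female sample 3 it was too dim to be tested.

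Hp and Hpx did not follow that order in kidney. Hp had 114, 96.3 and 153.2 in male and 229.3, 46.5 and 245.5 in female kidney, and Hpx 347.2, 88.2 and 475.3 in male and 629.2, 95.9 and 82.9 in female kidney. For the number their adjusted p was 0.102 and 0.115. Hpx passed without female sample 3 (0.0019) and Hp without male sample 2 (0.0327). Alb had 625.9, 188.3 and 1711 in male and 1279, 442.3 and 301.5 in female kidney, and Apoa2, an apolipoprotein of hepatocytes, 228.4, 118, 507, 344.6, 180 and 149.2 in the same order. Male samples 1 and 3 and female sample 1 were thus the 3 highest kidneys for Hpx, Alb and Apoa2 alike, and Saa1 on 1450788_at was highest in female kidney sample 1 (165.4) and then male sample 1 (75.6). Alb and Apoa2 are 2 of the 10 hepatocyte markers, and the others are not given here by sample. The part of hepatocyte RNA in the kidney levels of the members was not tested.

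Between male and female kidney 0 of the 4 members tested passed, where 0.231% of all tested probe sets did, and 0 reached an unadjusted p under 0.05. With the sample numbers as a block 0 of the 4 passed as well, while the calls over all probe sets went from 32 to 145. The log2 difference, male minus female, was 0.46 ± 0.85 for Lcn2, 0.38 ± 0.69 for Hpx, -0.25 ± 0.40 for Hp and 0.07 ± 0.34 for Saa3. Whether the sex difference itself differed between liver and kidney was tested in a joint fit, and 0 of these 4 members passed, where 0.237% of 16901 probe sets did. Among the 4 the lowest p was that of Lcn2 (-1.23 ± 1.08, unadjusted p = 0.274). The other 7 probe sets were too dim in kidney, and all 11 in hypothalamus, for this difference to be read.

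Some other acute phase genes of the kidney also passed for the number. Of 16 positive acute phase genes tested there, 6 passed, where 8.17% of all tested probe sets did: Cfb (complement factor B), Cp (ceruloplasmin, a copper carrier), Mt2, Serpina1b (an inhibitor of elastase), Lbp and Cd14. Cfb had 1498, 3711 and 4173 in male and 1451, 2884 and 3269 in female kidney, and Cp 1038, 1625 and 1952 in male and 1145, 1494 and 2116 in female kidney. For both, sample 1 was the lowest and sample 3 the highest in both sexes, as for Lcn2. Nfkbiz, Cebpd and Cebpa were the 3 that passed of 16 signalling and transcription factors. All 6 MHC class II genes passed, with sums from 9910.7 to 47051 in male and 12282 to 38824 in female kidney, and their part was not tested. All calls for the number in kidney went from 1133 to 57 on the first arrays alone and to 77 without a filter.

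Kidney was then set against the tissues other than liver. Hp was higher in kidney than in hypothalamus (1.65 ± 0.25, adjusted p = 3.97e-06), where it lay between 7.80 and 10.1, and Hpx (0.88 ± 0.37, 0.0377) also passed, among 72.5% of all probe sets. Both genes were above the 40th percentile in 3 of 6 kidney samples and 0 of 6 hypothalamus samples. They entered this contrast only through tissues where they are higher, so these differences follow in part from the filter. Lcn2, at 51.6 to 199.2 in hypothalamus, did not pass (1.07 ± 0.49, 0.0536), but did with the sample numbers as a block (0.0109), with quantile normalization (0.0123), and without male kidney sample 1 (0.00292), female kidney sample 1 (0.0307) or female hypothalamus sample 2 (0.0468). The Hpx call was lost on the first arrays (0.175) and, leaving out 1 sample at a time, for 6 of the 12 samples: female kidney sample 1 (0.163), male kidney samples 1 and 3 (0.0818 and 0.114), female hypothalamus sample 1 (0.0916) and male hypothalamus samples 1 and 2 (0.0701 and 0.0517). Orm1 lay between 6.35 and 68.9 in kidney and between 4.60 and 15.7 in hypothalamus, below the 40th percentile in all 12 samples. Against testis, where 70.5% passed, kidney was lower for Lcn2 (-3.70 ± 0.60, 8.03e-06) and higher for Hp (0.90 ± 0.31, 0.0135), the latter lost without testis sample 2 (0.129) or 3 (0.119), while Hpx (0.55 ± 0.46, 0.285) passed without testis sample 1 (0.0255). Against ovary, where 56.8% passed, kidney was lower for Hp (-2.40 ± 0.31, 7.54e-07) and Lcn2 (-2.92 ± 0.60, 0.000239) and higher for Hpx (1.17 ± 0.46, 0.0322). Hpx was above the 40th percentile in 0 of 3 ovary samples, so the same limit holds for its call against ovary. Saa3 did not pass (-0.84 ± 0.41, 0.0852), but did with the block (0.0184) and without female kidney sample 3 (0.0365). The Hpx call against ovary was lost on the first arrays (0.0569), without male kidney sample 1 (0.0603) or 3 (0.0776), female kidney sample 1 (0.0814) or any ovary sample (0.0702 to 0.0811). Of the calls, the share higher in kidney moved with quantile normalization from 40% to 51.5% against hypothalamus and from 32.2% to 44.1% against ovary.

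By their mean intensity the tissues ordered as follows. For Lcn2 the order was liver, testis, ovary, kidney and hypothalamus. Of the neighbours in it, liver and testis did not pass in the joint fit, nor did testis and ovary (0.332, against 0.0167 in the fit of the gonads alone), and kidney and hypothalamus passed in the alternatives given above. For Hp it was liver, ovary, kidney, testis and hypothalamus, of which testis and hypothalamus were not set against each other. For Saa3 ovary and testis followed liver, with the test between them as given above, and kidney did not differ beyond its spread from testis (-0.51 ± 0.41, adjusted p = 0.268) or hypothalamus (0.14 ± 0.33, 0.71). For Saa1, Saa2, Orm1, Orm2, Apcs and Crp, tested only through liver, no full order below liver is given. By level alone, Orm1 in ovary (110.3 to 238.2) lay above kidney (at most 68.85), testis (at most 40.65) and hypothalamus (at most 15.65). Only 1 of those ovary samples was above the 40th percentile. Saa1 on 1450788_at lay higher in testis (30.15 to 124.3) than in ovary (at most 20) and hypothalamus (at most 28.65), all below that percentile.

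In hypothalamus 0 of the 11 probe sets were bright enough to be tested between the sexes or by number, where 0.0508% of 13787 passed in each test. Saa3 lay between 101.5 and 158.7 and Hpx between 60.5 and 142.9, below the 40th percentile of every sample, and Lcn2 was above it in 1 of 6 samples. Other acute phase genes were bright there: Itih3, a heavy chain that binds hyaluronan, lay between 2454 and 2905 and Serpina3n between 593.9 and 745.3. Slc22a17, described as a receptor for Lcn2, lay between 3848 and 4620 in hypothalamus and between 231.8 and 383.4 in liver (log2 difference, liver minus hypothalamus, -3.65, adjusted p = 1.95e-18). Lrp2 and Cubn, the endocytic receptors that take up filtered proteins, were higher in kidney than in liver (-6.04 and -5.70, liver minus kidney), at 3935 to 6871 and 3660 to 4425. Itih3, Serpina3n and these receptors were chosen after their values were seen.

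The genes whose 8 group means correlated best with a member were mostly other genes bright in the liver samples, as any gene bright there and dim elsewhere would be. For Saa2 they were Lect2, Hamp2 and Cd5l (r from 0.9993 to 1), for Orm2 Igsf6, Orm3 and Fermt3 (0.997 to 0.9981) and for Hpx Proz, Itih1 and Serpina10 (0.997 to 0.9987). For Crp they were F2, Hamp and Ctrl, and for Apcs Rtp3, Apoc4 and Otc. Ctrl is on the list of exocrine pancreas markers, as is Cpa1, which was among the 3 nearest for Orm1 and Saa3. Cd5l is on the list of macrophage and Kupffer cell markers. Hp, which is also bright in ovary, had 157 genes above 0.95, led by Apoa4, Igf1 and Steap4 (0.9905 to 0.9928), while Saa3 had 287 and Hpx 401. Lcn2 had 16, led by Arfgap2, Ripk3 and Sec61a1 (0.9732 to 0.988). These correlations run over 8 group means dominated by the 2 liver groups and are descriptions.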

How the data were processed

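RNA of 24 samples was measured on 48 arrays. The authors deposited 1 linear intensity for each probe set on each array, with software and probe summary not given in the sources used here. After scaling to the same trimmed mean, log2(intensity + 48.1) was taken, with the 20th percentile of all intensities as pseudocount, and averaged over both arrays of a sample, so a log2 difference understates the change of a dim gene. Probe sets above the 40th percentile in 3 RNA samples were tested with limma 3.58.1 (R 4.3.3, Benjamini-Hochberg over all tested, threshold 0.05), within a tissue for sex and replicate number, in the gonads, and over all 8 groups for tissues. The fit was tested on simulated data. Python 3.11.15 with matplotlib 3.10.9 drew the figures.

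Every member was named; of each other list, up to 4 genes with the lowest p in the comparison described and any that passed could be named, and of genes with like group means the 3 nearest. Members and lists were chosen with earlier results of these data known. Same-numbered male and female samples deviated together, with correlations in liver of 0.535, 0.139 and 0.482, in kidney of 0.591, 0.424 and 0.627, and for hypothalamus 0.392, 0.101 and 0.328, by the numbers of the titles, each above 0.1, although in liver a pair of different numbers reached 0.286, above the 0.139 of number 2. The main tests have no block, and the fit with the replicate block is an alternative. Correlations of the gonads were 0.0422, 0.146 and 0.0425. Promoters and gene names came from RefSeq, GRCm38.p6, and pairwise alignments from Biopython 1.88. Alternatives were quantile normalization, other pseudocounts, either array alone, no filter, the replicate block, 1 joint fit and leaving out each sample.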

Additional observations from a re-analysis of the deposited data

How the results depend on the processing

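The 143 single values for members were recomputed under the alternatives, which gave 2370 values. Of these, 2311 kept their call or lack of one, 41 lost a call, 18 gained one and 0 called values reversed. Among the 2311, 133 uncalled ones changed sign. Members called in testis against ovary went from 2 to 1 with quantile normalization, 3 on the technical replicate arrays and 4 without a filter, in kidney against hypothalamus from 3 (Hp, Hpx and the dim Orm1) to 5 with quantile normalization, 4 with the block and 2 with 4 times the pseudocount (Orm1 at 0.282), on technical arrays (Orm1 0.113), without a filter (Orm1 0.0543) or on first arrays (Hpx 0.175), and by number in kidney from 2 to 1 with 0.25 times the pseudocount or on the technical replicate arrays, and to 0 on first arrays or without a filter. The cause of these changes was not tested. With the replicate block, called probe sets rose from 7 to 11 for sex in liver and from 32 to 145 in kidney, and for the sex difference between tissues from 40 to 74 (liver, kidney), from 3 to 6 (liver, hypothalamus) and from 35 to 64 (kidney, hypothalamus); 0 members were among those for sex.

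Other totals were, for sex in liver, 4 without a filter or with 4 times the pseudocount, and 22 in 1 joint fit; for kidney, 130 in the joint fit; for liver and kidney, 26 on first arrays; for liver and hypothalamus, 1 with 0.25 times the pseudocount or on technical arrays and 0 with 4 times or no filter; and for kidney and hypothalamus, 23 with 0.25 times the pseudocount or first arrays. By number, liver went from 115 to 19 (first arrays), 59 (technical arrays) and 13 (no filter), kidney from 1133 to 694 (0.25 times), 57 (first arrays) and 77 (no filter), and hypothalamus from 7 to 1 (0.25 times), 22 (4 times) and 0 (first arrays or no filter).

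Leaving out 1 sample gave totals of 1 to 3 for sex in liver, 10 to 37 in kidney, 2 to 7 in hypothalamus and 8375 to 10130 in testis against ovary, of 25 to 72, 0 to 5 and 18 to 78 for the sex difference between tissues in the order above, and of 19 to 974, 332 to 868 and 1 to 25 by number in liver, kidney and hypothalamus. Members called were 1 to 2 in testis against ovary, 10 to 11 in liver against testis and against ovary, 1 to 3 in kidney against hypothalamus and against testis, 3 to 5 in kidney against ovary, and by number 0 to 3 in liver and 1 to 2 in kidney. Signal over background limits the members outside liver: 7 of 11 probe sets were tested there only through their liver values. Hp and Hpx lie near the top of the scale in liver. With 3 pooled RNA samples a group, the wide spread of Saa1, Saa2, Saa3, Orm2 and Lcn2 in liver limits what the comparison of the sexes could show.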
